A study of Mus musculus with 15 samples.

Results

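The C/EBP family was followed here through its 4 members Cebpa, Cebpb, Cebpd and Cebpg, which encode CCAAT/enhancer binding proteins alpha, beta, delta and gamma. The members were all probe sets whose platform annotation gave 1 of these 4 symbols and no other, and this found 8 probe sets among 45101 on the array, or 4 genes among 18193 with such a probe set. Cebpa had 1 probe set, Cebpb 2, Cebpd 2 and Cebpg 3. The rule used symbols and no measured value, although the family itself was picked with earlier results of these data known. The cells were primary hepatocytes of male C57BL/6 mice, with no allele or drug named in the labels. Freshly isolated cells (labelled t0, called fresh here) were set beside cells kept for 4 h or 24 h as monolayers on tissue culture dishes (TCD) or as 3D aggregates in rotating wall vessels (RWV). Each of these 5 groups had 3 independent biological replicates, each measured on 1 Affymetrix array, so that every group mean rests on 3 values. All groups were taken from cells that had been through isolation, and no intact liver was used here. The labels do not give the age of the mice or the number of animals behind a replicate.

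C/EBP proteins bind DNA as dimers held together by a basic leucine zipper, and the members can pair with each other and with related factors of the ATF, CREB and AP-1 families. In the liver, C/EBP alpha is known as a driver of the mature hepatocyte programme of gluconeogenesis, glycogen storage, urea synthesis and plasma proteins, and as a brake on proliferation. C/EBP beta and delta are known for the acute phase response to interleukin-6 and interleukin-1, and beta also for liver regeneration. C/EBP gamma lacks a transactivation domain of its own and is known as a partner of the others and of ATF4, the factor that drives the response to amino acid shortage and endoplasmic reticulum stress.

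The promoters of 3 members are shown because Cebpa and Cebpg, which moved in opposite directions in culture, are near neighbours on mouse chromosome 7 and lie on opposite strands, with 1 annotated gene (Gm35611) between them. Each stretch is from RefSeq (GRCm38.p6) and runs over 300 bases, 250 before and 50 after the annotated start site, 5′ to 3′ on the strand of the gene. Capitals mark every match, on either strand, to the TATA box (TATAAA), the CCAAT box (CCAAT), the core of the cAMP response element (TGACG) and the C/EBP site (TTGCNNAA). A match on the opposite strand reads in reverse complement, so that the CCAAT box and the response element core then appear as their complements.
Cebpa, chr7:35119043-35119342, plus strand: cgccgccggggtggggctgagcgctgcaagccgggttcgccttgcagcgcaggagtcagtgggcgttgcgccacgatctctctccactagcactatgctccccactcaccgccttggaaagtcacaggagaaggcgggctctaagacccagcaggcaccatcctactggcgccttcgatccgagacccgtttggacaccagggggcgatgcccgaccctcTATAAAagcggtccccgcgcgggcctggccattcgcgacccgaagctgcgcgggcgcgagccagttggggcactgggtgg
Cebpb, chr2:167688665-167688964, plus strand: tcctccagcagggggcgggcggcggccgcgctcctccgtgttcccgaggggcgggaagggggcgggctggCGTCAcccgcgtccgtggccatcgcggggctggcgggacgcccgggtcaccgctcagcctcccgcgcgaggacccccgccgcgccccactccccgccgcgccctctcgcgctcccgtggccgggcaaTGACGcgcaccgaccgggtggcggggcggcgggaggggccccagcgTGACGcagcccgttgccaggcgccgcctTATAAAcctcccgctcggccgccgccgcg
Cebpg, chr7:35056517-35056816, minus strand: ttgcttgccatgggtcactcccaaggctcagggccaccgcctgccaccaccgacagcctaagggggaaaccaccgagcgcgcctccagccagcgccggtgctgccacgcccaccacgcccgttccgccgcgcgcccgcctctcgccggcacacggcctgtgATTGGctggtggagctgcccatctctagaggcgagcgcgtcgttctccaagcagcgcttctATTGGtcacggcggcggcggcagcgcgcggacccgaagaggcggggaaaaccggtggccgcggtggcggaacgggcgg
The Cebpa promoter held the TATA box, with its first base at -30 from the start site, and none of the other motifs searched. The Cebpb promoter held the TATA box at base 22, past the start site, and the response element core in 3 places, at -180, -53 and -7, the first of them on the opposite strand. It also held the GC box (GGGCGG) in 5 places, of which those at -238 and -234 overlap, and its content of G and C was 80.7%, against 67.3% for Cebpa and 71.7% for Cebpg. The Cebpg promoter held no TATA box. It held the CCAAT box on the opposite strand in 2 places, at -89 and -28, and 1 GC box, at base 45. None of the 3 held the C/EBP site or the STAT site (TTCNNNGAA) in this window. Of 32851 mouse promoters of this length, 13.6% held the TATA box, 37.4% the CCAAT box, 20.8% the response element core, 35.7% the GC box, 10.8% the C/EBP site and 8.3% the STAT site. These matches describe letters and were not set against binding. Cebpd lies on chromosome 16.

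The values are log2 signals from GCRMA (a background correction, normalisation and summary of probe sets) from which the fresh median had been subtracted in every probe set, so each value is a change from fresh cells and no level. The levels of the members relative to each other, and the presence of hepatocyte markers such as Alb in fresh cells, could not be read from such values. In bulk RNA, fewer cells of a type and less RNA per cell cannot be told apart. A probe set was tested when its values did not follow the background of the arrays, which left 22096 probe sets with 1 symbol, of 12423 genes, and 7 of the 8 members. The exception, the Cebpd probe set 1456605_at, stayed between -0.10 and 0.06 on all arrays and is not read further. Differences count as called where the p from 1 limma fit over the 15 arrays, adjusted by Benjamini-Hochberg over all probe sets tested, was under 0.05, and the error after ± is the standard error of that fit unless an SD is named. The lead probe set of a gene is the tested one with the largest SD over the arrays.

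One array stood apart before any result: in replicate 2 of TCD at 4 h the median of the hybridisation controls was 1.08, above the other 14 arrays, and limma gave it an array weight of 0.204. Without it, of the 4 h results, Cebpg kept 2 of its 3 calls between the vessels and Cebpd lost its call against fresh cells, as given below. Where the arrays are centred bears on the values against fresh cells. The median of 8 reference genes stood at 0.66 to 0.94 on the 24 h arrays, at 0.05 to 0.36 on the 4 h arrays and at -0.10 to 0.01 on the fresh ones, so that centring on them lowers every 24 h value. Of these 8 genes, 3 (Ywhaz, Sdha and Polr2a) themselves differed between the vessels at 24 h, and directions that turn under this centring are named beside the value.

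Cebpa, the member most tied to hepatocyte maturity, fell in culture and fell furthest in the monolayer. Its changes from fresh cells at 4 h were -1.52, -1.47 and -1.09 in TCD and -0.66, -1.12 and -0.65 in RWV (replicates 1, 2 and 3). At 24 h they were -3.16, -3.69 and -3.28 in TCD and -2.18, -1.95 and -1.90 in RWV, and the fresh arrays lay between -0.19 and 0.06. The groups thus ran, from high to low, fresh, RWV at 4 h, TCD at 4 h, RWV at 24 h and TCD at 24 h, and only the RWV and TCD values of 4 h overlapped. The mean signal at 24 h was 9.62% of the fresh median in TCD and 24.8% in RWV. Against fresh cells Cebpa was lower by all 4 comparisons, by -1.32 ± 0.174 in TCD and -0.77 ± 0.174 in RWV at 4 h (limma, adjusted p = 0.00017 and 0.00582), and by -3.33 ± 0.174 and -1.97 ± 0.174 at 24 h (adjusted p = 1.48e-08 and 1.85e-06). From 4 h to 24 h it fell further, by 2.02 in TCD (adjusted p = 1.41e-06) and by 1.20 in RWV (adjusted p = 0.00017).

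**Figure D1:**
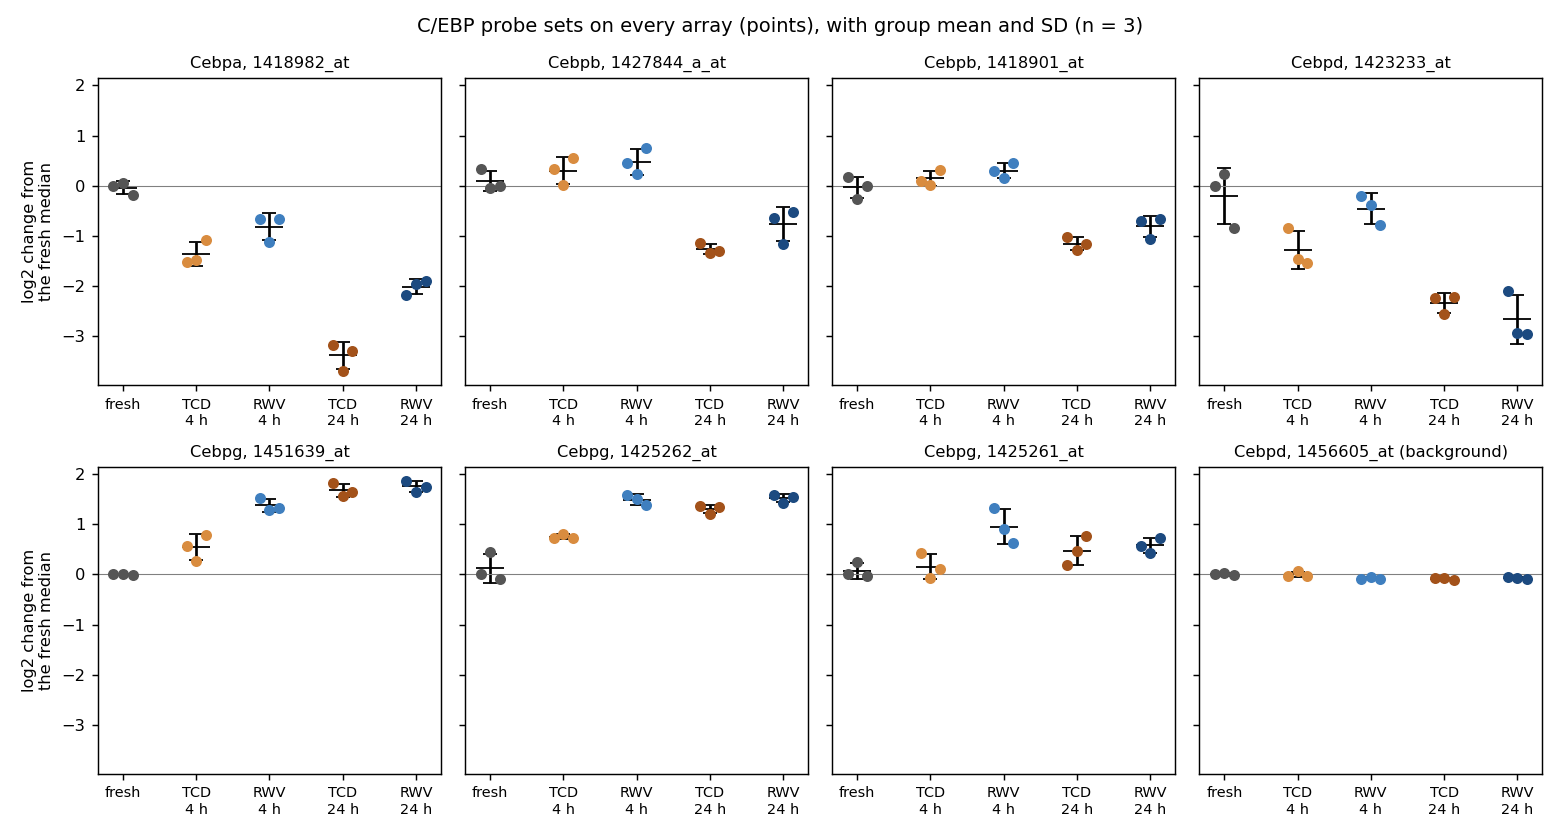
Values of the 8 C/EBP probe sets on each of the 15 arrays, as log2 change from the median of the fresh arrays (y axis), by group (x axis); points are arrays and bars give the mean and SD of 3. Cebpa falls to between -3.69 and -3.16 in TCD at 24 h and to between -2.18 and -1.90 in RWV. Cebpb stays near fresh at 4 h and lies below it at 24 h, and Cebpd is lowest at 24 h. Cebpg lies above fresh in culture, apart from 1425261_at in TCD, whose arrays overlap the fresh ones at 4 h and at 24 h. After centring on reference genes, the 1425261_at means in TCD at 4 h and in both vessels at 24 h fall below fresh.

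Cebpb had 2 probe sets, which followed each other over the 15 arrays (r = 0.99), and it did not show the early loss of Cebpa. By the lead probe set, 1427844_a_at, its changes at 4 h were 0.32, 0.02 and 0.55 in TCD and 0.45, 0.24 and 0.76 in RWV, with the fresh arrays at 0.33, -0.05 and 0.00. These 3 groups overlapped, and neither 4 h group was called against fresh cells (0.21 in TCD, adjusted p = 0.514, and 0.39 in RWV, adjusted p = 0.166). The other probe set, 1418901_at, stood at 0.18 and 0.33 (adjusted p = 0.434 and 0.113). In RWV it was called with the replicate number as a block in the fit (adjusted p = 0.0245). At 24 h the changes by the lead were -1.14, -1.34 and -1.30 in TCD and -0.64, -1.15 and -0.51 in RWV, all below every 4 h and fresh array. Cebpb was lower than in fresh cells by -1.35 ± 0.193 in TCD (adjusted p = 6.89e-05) and by -0.86 ± 0.193 in RWV (adjusted p = 0.00279), and the second probe set, 1418901_at, gave -1.12 ± 0.143 and -0.78 ± 0.143 (adjusted p = 2.58e-05 and 0.000666). The fall therefore lay between 4 h and 24 h, by 1.56 in TCD and 1.25 in RWV (adjusted p = 2.65e-05 and 0.000267). Transcript level does not tell how much of the long activating and the short inhibitory form of C/EBP beta, made from 1 mRNA by different start codons, the cells held.

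Cebpd, like Cebpb an acute phase member, fell in both vessels by 24 h, and its fresh arrays spread more widely than those of the other members. They stood at 0.00, 0.24 and -0.83. At 4 h its changes were -0.85, -1.46 and -1.54 in TCD and -0.20, -0.38 and -0.79 in RWV, so that every RWV array lay above every TCD array and the RWV arrays lay within the range of the fresh ones. At 24 h the values were -2.24, -2.55 and -2.21 in TCD and -2.09, -2.93 and -2.94 in RWV, which overlapped. In TCD the fall had reached -1.08 ± 0.309 by 4 h (adjusted p = 0.0240), while in RWV the difference of 4 h was -0.25 ± 0.309 (adjusted p = 0.616). The early call in TCD rested on single arrays: the adjusted p was 0.0716 without replicate 2 of TCD, 0.0763 without replicate 3 of TCD, 0.0825 without fresh replicate 1 and 0.0940 without fresh replicate 2. At 24 h Cebpd was lower than in fresh cells by -2.13 ± 0.309 in TCD and by -2.45 ± 0.309 in RWV (adjusted p = 7.60e-05 and 3.45e-05).

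Cebpg was the member that rose. By its lead probe set, 1451639_at, the changes at 4 h were 0.57, 0.27 and 0.79 in TCD and 1.53, 1.29 and 1.32 in RWV, with the fresh arrays at 0.00, 0.00 and -0.02. At 24 h they were 1.81, 1.57 and 1.64 in TCD and 1.86, 1.65 and 1.75 in RWV. Only the 24 h groups overlapped, and the order from high to low was RWV and TCD at 24 h, RWV at 4 h, TCD at 4 h and fresh. From 4 h to 24 h this probe set rose in TCD by 1.13 ± 0.125 (adjusted p = 1.11e-05). In RWV the step was 0.37 ± 0.125 (adjusted p = 0.0331), which is uncertain: the other Cebpg probe sets stood at 0.03 and -0.37 (adjusted p = 0.934 and 0.168), and the mean of the 3 at 0.01. The call was also lost without RWV 4 h replicate 2 or 3 (adjusted p = 0.107 and 0.0925) or RWV 24 h replicate 1 or 3 (0.111 and 0.0737). The step turned to -0.08 when the arrays were centred on reference genes. Under that centring 1425262_at and 1425261_at were called lower at 24 h than at 4 h in RWV (-0.43 and -0.83, adjusted p = 0.0162 and 0.00344). Against fresh cells Cebpg was higher at 4 h by 0.55 ± 0.125 in TCD and 1.38 ± 0.125 in RWV (adjusted p = 0.00741 and 7.75e-06) and at 24 h by 1.68 ± 0.125 and 1.76 ± 0.125 (adjusted p = 2.73e-07 and 3.07e-07). A second probe set, 1425262_at, followed it closely over the arrays (r = 0.93), with 0.63, 1.37, 1.19 and 1.40 in the same order of comparisons, all called. The third, 1425261_at, followed it less (r = 0.65), and of the comparisons with fresh cells only RWV at 4 h was called (0.87 ± 0.195, adjusted p = 0.00544). In TCD at 24 h the third stood at 0.40 ± 0.195 (adjusted p = 0.108). After centring on reference genes it turned to -0.52 and was called lower than in fresh cells (adjusted p = 0.0266). Under that centring the lead probe set stayed higher at 0.76 (adjusted p = 0.000113) and the second stood at 0.26 (adjusted p = 0.0892). Which transcripts the 3 probe sets read was not looked up here.

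Set against all probe sets tested, the family counts read as follows. In TCD at 4 h 2 member probe sets were higher and 2 lower than in fresh cells, of 7, where 9.18% and 13.7% of all probe sets were; the percentages here and below are of the 22096 tested. In RWV at 4 h the members counted 3 higher and 1 lower, against 14.3% and 13.2% of all. In TCD at 24 h 2 were higher and 4 lower, against 30.9% and 21.6%, and in RWV at 24 h likewise 2 and 4, against 28.9% and 17.1%. From 4 h to 24 h the counts were 2 higher and 4 lower in TCD (32.9% and 17.9% of all) and 1 and 4 in RWV (24.7% and 13.6% of all). These counts hold 7 probe sets of 4 genes, and the comparisons with fresh cells share the same 3 fresh arrays. By size, the loss of Cebpa in TCD at 24 h was exceeded by 2.12% of the probe sets tested, and that of Cebpd in RWV at 24 h by 2.83%. Centring on reference genes turned the balance of all probe sets in TCD at 24 h from 6821 higher and 4783 lower to 2857 and 14573; Cebpa, Cebpb and Cebpd stayed lower and the lead probe set of Cebpg stayed higher under it.

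**Figure D2:**
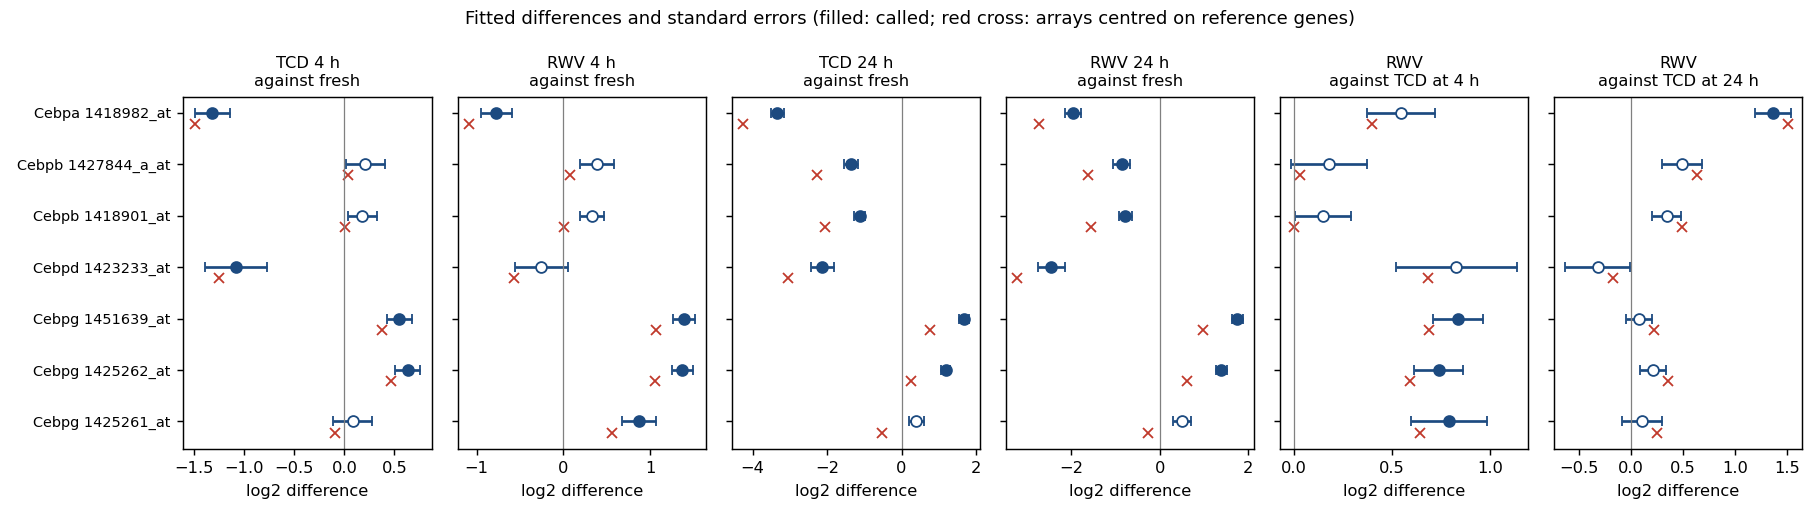
Fitted log2 differences of the 7 tested C/EBP probe sets in 6 comparisons (x axis, own scale in each panel), with their standard errors; filled circles passed the adjusted p of 0.05, and red crosses give the same difference after each array was centred on reference genes. Cebpa stands at 1.37 between the vessels at 24 h and the 3 Cebpg probe sets between 0.74 and 0.84 at 4 h; under the centring Cebpg 1425261_at turns to -0.52 and -0.27 against fresh cells at 24 h, and to -0.09 in TCD at 4 h.

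The 4 h samples show how early aggregates and monolayers parted. Cebpg was higher in RWV by all 3 of its probe sets: by 0.84 ± 0.125 (1451639_at, adjusted p = 0.00364), 0.74 ± 0.126 (1425262_at, adjusted p = 0.00717) and 0.79 ± 0.195 (1425261_at, adjusted p = 0.0373). In each, the 3 RWV arrays lay above the 3 TCD arrays, for which the two-sided exact permutation p is 0.1, the smallest that 3 against 3 arrays can give. These 3 were the only calls among 7 member probe sets, where 4.68% of all probe sets were higher in RWV and 0.706% lower. They are 3 readings of 1 gene. The call of 1425261_at was kept in 10 of 22 other settings, with an adjusted p of up to 0.211, and was lost after centring on reference genes (0.0808). Cebpd was also higher on every RWV array, by 0.83 ± 0.309, and missed the threshold (adjusted p = 0.157), as did Cebpa (0.55 ± 0.174, adjusted p = 0.0988; 0.0474 without TCD replicate 3). The Cebpb differences were 0.18 and 0.15 (adjusted p = 0.674 and 0.630). Without the TCD array that stood apart, Cebpg was higher by 0.70 (adjusted p = 0.00752) and 0.77 (adjusted p = 0.0163) in the first and second probe sets, and by 0.68 in the third, which lost its call (adjusted p = 0.125). With only the 6 arrays of 4 h in the fit, which leaves fewer degrees of freedom, none of the 3 was called (0.109 for the lead) and 27 of all probe sets were, against 1191.

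At 24 h Cebpa was the 1 member called between the vessels. Cebpa was higher in RWV by 1.37 ± 0.174 (2.58-fold, adjusted p = 0.000286), and all 3 RWV arrays lay above all 3 TCD arrays (exact permutation p = 0.1). This was the 1 call among 7 member probe sets, where 7.88% of all probe sets were higher in RWV and 6.48% lower, so the share of members called was close to the background. A larger difference toward RWV was found in 2.0% of the probe sets. The result stayed called in all 24 other settings tried, between 1.21 and 1.51, with an adjusted p of at most 0.00974. Cebpb missed the threshold, at 0.49 ± 0.193 and 0.34 ± 0.143 (adjusted p = 0.120 and 0.143), and its groups overlapped through replicate 2 of RWV. Without that array the lead probe set stood at 0.68 and was called (adjusted p = 0.0418). It was also called after centring on reference genes (0.64, adjusted p = 0.0495). With the replicate number as a block in the fit both Cebpb probe sets were called (adjusted p = 0.0343 and 0.0327). A higher Cebpb in RWV thus depends on these choices. Cebpd stood at -0.32 ± 0.309 (adjusted p = 0.608) and Cebpg at 0.08, 0.21 and 0.11 (adjusted p = 0.821, 0.329 and 0.866). For these a p above the threshold does not show that the vessels were alike. By Cebpg 1425262_at, at 0.21, all RWV arrays also lay above all TCD arrays (exact permutation p = 0.1). The share of all probe sets whose arrays separate in this way is not given here for either time.

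The interaction asked whether the difference between vessels itself changed from 4 h to 24 h. For Cebpg it did by the lead probe set, whose advantage in RWV shrank by -0.76 ± 0.177 (adjusted p = 0.0179). The other Cebpg probe sets pointed the same way without a call (-0.52, adjusted p = 0.0806, and -0.68, adjusted p = 0.134), and after centring on reference genes the lead stood at -0.46 (adjusted p = 0.0824). For Cebpa the difference between vessels was larger at 24 h by 0.82 ± 0.246 and missed the threshold (adjusted p = 0.0515), and it was called in 6 of 24 other settings. Cebpd stood at -1.15 ± 0.436 (adjusted p = 0.113). With the replicate number as a block in the fit, Cebpa and Cebpd were both called (adjusted p = 0.04629 and 0.04625). Of the members 1 of 7 was called here, lower, where 4.52% of all probe sets were higher and 6.96% lower.

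The members shifted against each other within each array, which a centring of whole arrays cannot alter. The change of Cebpg minus that of Cebpa was 0.04 ± 0.12 (SD, n = 3) in fresh cells, 1.90 ± 0.18 in TCD and 2.19 ± 0.22 in RWV at 4 h. It was 5.05 ± 0.18 in TCD and 3.76 ± 0.24 in RWV at 24 h, and the vessels did not overlap at 24 h. The change of Cebpa minus that of Cebpb was -1.66 ± 0.18 in TCD and -1.29 ± 0.16 in RWV at 4 h, and -2.12 ± 0.20 and -1.24 ± 0.39 at 24 h, against -0.14 ± 0.22 in fresh cells. In RWV this balance was thus about as far from fresh at 4 h as at 24 h. The change of Cebpa minus that of Cebpd was -1.04 ± 0.11 in TCD and 0.64 ± 0.63 in RWV at 24 h, with the vessels on opposite sides of 0 apart from RWV replicate 1, at -0.09. No test was made of these balances, since they combine chosen members. Cebpg minus Cebpa was not among the balances set out beforehand, and it pairs the member that rose with one that fell. With probe sets averaged per gene it was 4.53 in TCD and 3.29 in RWV at 24 h.

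**Figure D3:**
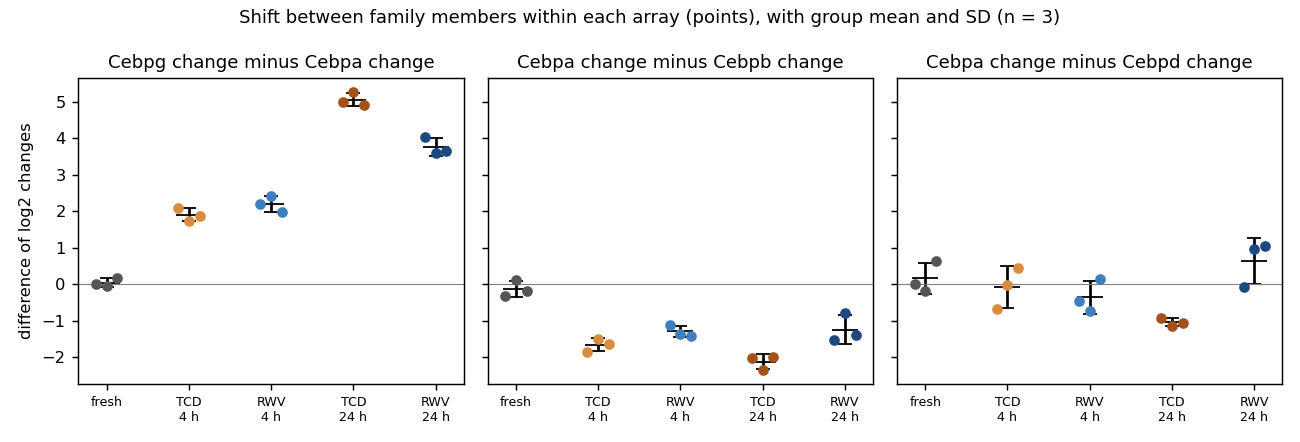
Change of 1 C/EBP member minus that of another within each array (y axis, log2) by group (x axis), lead probe sets; points are arrays, bars the mean and SD of 3. Cebpg minus Cebpa reaches 4.92 to 5.25 in TCD at 24 h and 3.60 to 4.04 in RWV, and Cebpa minus Cebpb lies below 0 in all cultured groups.

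Over the 15 arrays the lead probe sets of Cebpa and Cebpb had a Pearson r of 0.83, those of Cebpa and Cebpd 0.81, and those of Cebpb and Cebpd 0.77, while Cebpg ran against Cebpa (r = -0.71). The arrays share 5 groups, so these values mostly restate the group means. The genes most like Cebpa were Rtn4ip1 (r = 0.98), Atp5j (0.98), Plpp3 (0.98), Hsd17b4, an enzyme of peroxisomal fatty acid oxidation (0.97), and Aamdc (0.97). Those most like Cebpb were Rcl1 (0.96), Setdb2 (0.96), Srsf4 (0.96), Mfsd8 (0.95) and Slc25a51 (0.95). Cebpd was most like Nr0b2, which encodes the repressor SHP of bile acid synthesis, Mpst, Cyp2d9, St3gal5 and Cyp4f13, all at r = 0.92. Cebpg was most like Chchd4 (0.98), Ctnnal1 (0.98), Aen (0.98), Pmm1 (0.97) and Phgdh (0.97), the first enzyme of serine synthesis.

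Among 15 tested relatives and zipper partners, Atf5 and Hlf were higher in RWV at 24 h. Hlf, a PAR-domain zipper factor of the liver, stood at -4.18, -5.48 and -5.05 in TCD and at -2.42, -1.87 and -2.61 in RWV, a difference of 2.60 ± 0.351 (adjusted p = 0.000420) by 1 of its 2 probe sets, and the other was not called. Atf5 was higher in RWV by 0.98 ± 0.153 at 4 h and 0.99 ± 0.153 at 24 h (adjusted p = 0.00449 and 0.00109). Fos, which can pair with C/EBP beta, was lower in RWV at 4 h (-1.79 ± 0.317, adjusted p = 0.00823) and higher at 24 h (1.20 ± 0.317, adjusted p = 0.0252, kept in 19 of 24 other settings), and the interaction was called (2.99 ± 0.448, adjusted p = 0.00195). Of the 15, the counts were 1 higher and 1 lower at 4 h and 3 and 0 at 24 h, where 5.39% and 0.676% of the 12423 genes, each by its lead probe set, were higher and lower at 4 h and 8.36% and 6.87% at 24 h. Their median difference was -0.06 at 4 h and -0.01 at 24 h, against -0.01 and -0.00 for all genes. Against fresh cells 7 rose and 5 fell in TCD at 24 h and 6 and 4 in RWV, where 32.8% and 23.4% of all genes rose and fell in TCD and 30.6% and 19.1% in RWV.

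Ddit3 (CHOP), a stress-induced relative that forms dimers with C/EBP proteins, was the most raised of the relatives at 4 h. Its values were 6.31, 6.47 and 6.27 in TCD and 6.54, 6.73 and 6.67 in RWV at 4 h, and 3.06, 2.84 and 3.08 in TCD and 3.44, 2.66 and 3.21 in RWV at 24 h, so that the 24 h arrays lay between the fresh and the 4 h arrays. At 4 h every RWV array lay above every TCD array. By the lead probe set neither difference was called (0.30 at 4 h, adjusted p = 0.538, and 0.11 at 24 h, adjusted p = 0.901), while the other of its 2 probe sets was called higher in RWV at both times. Cebpe was not among the genes with a probe set of its own symbol alone.

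Regulators of the family were mixed. Of 22 tested, 2 were higher in RWV and 1 lower at 4 h, and 3 were higher and 2 lower at 24 h; the median differences were 0.12 at both times. Of all genes 5.39% and 0.676% were higher and lower at 4 h and 8.36% and 6.87% at 24 h, so the counts at 24 h are near the background. Hnf4a, a nuclear receptor that maintains hepatocyte identity, was higher in RWV at 24 h by 1.37 ± 0.226 (adjusted p = 0.00157), and so were the interleukin-1 receptor Il1r1 (1.43 ± 0.321, adjusted p = 0.0106) and Mtor (0.99, adjusted p = 0.00137), the last named after its value was seen. Hnf4a and Il1r1 were called lower than in fresh cells in both vessels at 24 h, with means of -2.37 and -2.26 in TCD and -0.99 and -0.83 in RWV. Lower in RWV than in TCD were Klf5 (-2.41 ± 0.351, adjusted p = 0.000719) and Eif4e (-1.70 ± 0.357, adjusted p = 0.00703, by 2 of 4 probe sets). Klf5 stood at 1.24, 2.90 and 3.12 in TCD at 24 h and between -0.11 and 0.17 in all other cultured groups and fresh cells. At 4 h RWV had more Foxa2, which opens chromatin at hepatic genes (1.61 ± 0.263, adjusted p = 0.00577), and more Pias1 (1.44 ± 0.214, adjusted p = 0.0035). Foxa2 was called lower than in fresh cells in both vessels, with means of -2.87 in TCD and -1.25 in RWV, and Pias1 stood at -1.69 and -0.25. Trib1 was lower in RWV at 4 h (-0.70 ± 0.183, adjusted p = 0.0469) by 1 of its 2 probe sets. The Trib1 call at 4 h was kept in 8 of 24 other settings, with an adjusted p of up to 0.143. Trib1 encodes the adaptor that guides C/EBP alpha to degradation. By 1 of its 2 probe sets it was lower than in fresh cells at 24 h in both vessels (-1.71 in TCD and -1.50 in RWV, adjusted p = 6.03e-06 and 2.73e-05). The other probe set was not called at 24 h. Socs3, the feedback inhibitor of interleukin-6 signalling, fell at 24 h (-7.94 in TCD and -7.12 in RWV, adjusted p = 8.56e-08 and 3.53e-07). Between the vessels Socs3 was not called (adjusted p = 0.586 at 4 h and 0.371 at 24 h), which does not show that the vessels were alike. Stat3, which induces Cebpd, is uncertain, since 2 of its probe sets rose and 1 fell against fresh cells in all 4 cultured groups.

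Genes known as hepatic targets of C/EBP alpha fell with it. Of 20 tested, 19 were lower than in fresh cells at 24 h in each vessel and 0 higher, with medians of -1.73 in TCD and -1.71 in RWV, where the medians of all genes were -0.01 and 0.01. Of all genes 23.4% were lower and 32.8% higher in TCD, and 19.1% lower and 30.6% higher in RWV. At 4 h, when Cebpa was already lower, the counts were 1 higher and 4 lower in TCD and 1 and 3 in RWV, where 9.39% and 15.7% of all genes were higher and lower in TCD and 15% and 14.4% in RWV. Between the vessels at 24 h, 4 targets were higher and 4 lower in RWV, with a median of -0.11, while Cebpa was higher; of all genes 8.36% were higher and 6.87% lower. The glycogen synthase gene Gys2 stood at -3.93, -4.26 and -3.57 in TCD and -1.69, -1.27 and -1.87 in RWV, a difference of 2.31 ± 0.287 (adjusted p = 0.000244). G6pc, the last enzyme of glucose output, was also higher (1.86 ± 0.439, adjusted p = 0.0139, kept in 21 of 24 other settings), as were the glycogen phosphorylase gene Pygl (1.14, adjusted p = 1.54e-06) and the apolipoprotein gene Apob (0.90, adjusted p = 0.00141). Pck1, the entry enzyme of gluconeogenesis, went the other way, at -6.32, -6.57 and -7.10 in TCD and -10.91, -10.92 and -10.94 in RWV (-4.26 ± 0.346, adjusted p = 9.79e-06, by 2 of 3 probe sets), as did the fatty acid binding protein gene Fabp1 (-1.69 ± 0.216, adjusted p = 0.000294), the urea cycle gene Cps1 (-1.55, adjusted p = 0.0101) and Igf1 (-1.02, adjusted p = 0.0314). The Pck1 call was kept in 23 of 23 other settings, at -4.48 to -3.04. Its RWV values are nearly equal, and how near they lie to the lower limit of the signal cannot be read from changes. Pygl and Igf1 were named after their values were seen. At 4 h 0 of the 20 were called between the vessels by limma, and 3 had an unadjusted p under 0.05.

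**Figure D4:**
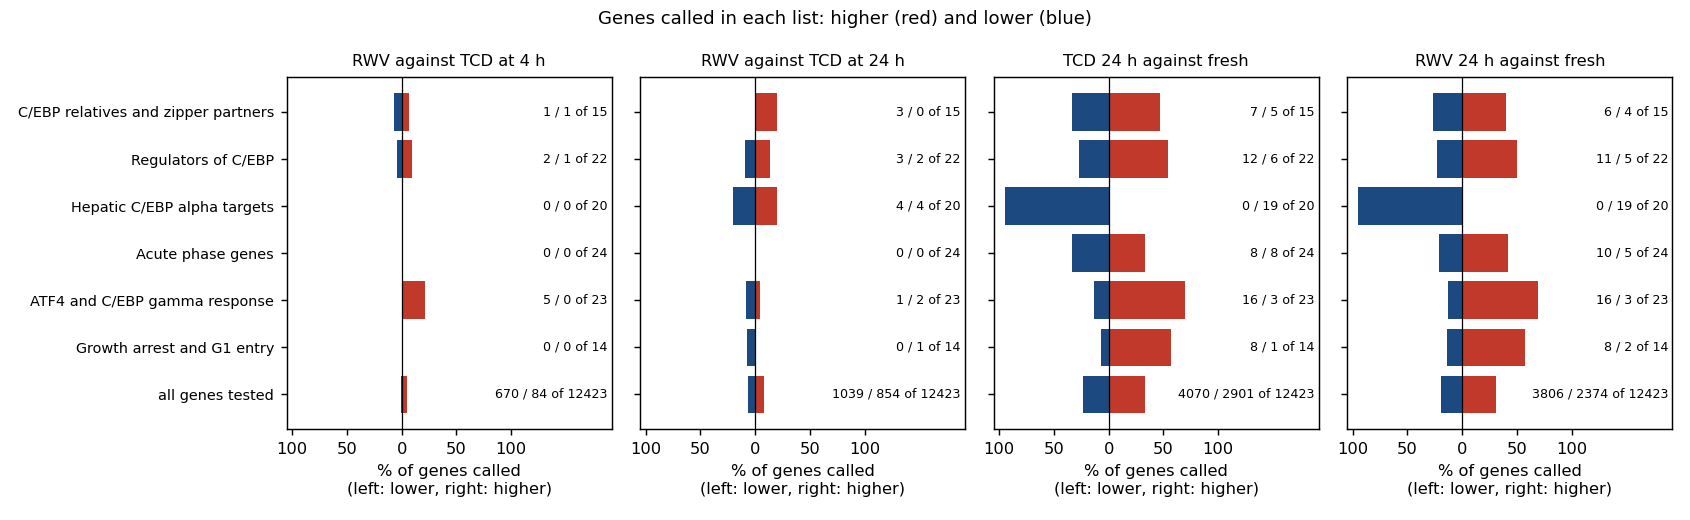
Share of the tested genes of each list called lower (blue, left) and higher (red, right) in 4 comparisons (x axis, percent), with the counts higher and lower of the number tested at the right; the last row gives all genes tested. Of the 20 C/EBP alpha targets 19 are lower than in fresh cells at 24 h in both vessels, and of the 23 ATF4 response genes 16 are higher.

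Acute phase genes, the textbook targets of C/EBP beta and delta, were called in neither direction between the vessels, 0 of 24 at 4 h and 0 of 24 at 24 h by limma after adjustment, with a median difference of 0.01 both times; 0 had an unadjusted p under 0.05 at 4 h and 7 at 24 h, 6 of them higher in RWV. The member with the smallest p at 24 h was Apcs (0.69, adjusted p = 0.0526), which encodes serum amyloid P. Against fresh cells 10 were higher and 0 lower at 4 h in each vessel. Of all genes 9.39% were higher and 15.7% lower in TCD, and 15% and 14.4% in RWV. At 4 h Cebpb was not called, and Cebpd was called lower in TCD alone, a call that rested on single arrays. At 24 h 8 were higher and 8 lower in TCD (33.3% each, against 32.8% and 23.4% of all genes) and 10 and 5 in RWV (41.7% and 20.8%, against 30.6% and 19.1%). The lipopolysaccharide co-receptor gene Cd14 was higher by 9.05 in TCD and 8.69 in RWV, and Saa4, a constitutive serum amyloid gene, was lower by -5.48 and -6.85. Macrophages are another source of such transcripts. Of 8 Kupffer cell and macrophage markers, all tested, 1 was higher than in fresh cells in TCD at 24 h (Cd68, by 9.99) and 3 in RWV (Cd68 by 8.78, Lyz2 by 2.48 and Marco by 1.74), and 0 were lower. Their median was -0.22 in TCD and 1.06 in RWV, and their mean, 0.77 to 1.52 on the TCD arrays and 0.93 to 2.65 on the RWV arrays, rests largely on Cd68. The part of these cells in the result was not tested.

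Genes of the ATF4 response, in which C/EBP gamma takes part, rose with Cebpg. Of 23 tested at 4 h, 16 were higher and 0 lower than in fresh cells in TCD, and 17 and 0 in RWV. Their medians were 2.51 and 2.49. Of all genes 9.39% were higher and 15.7% lower in TCD, and 15% and 14.4% in RWV. At 24 h the counts were 16 higher and 3 lower in each vessel, with medians of 2.75 and 2.79, where 32.8% of all genes were higher and 23.4% lower in TCD and 30.6% and 19.1% in RWV. The 3 that were lower at 24 h were Cth and Cbs, enzymes of transsulfuration, and Gclm. Atf4 itself stood at 1.40, 1.59 and 1.42 in TCD and 2.13, 2.15 and 2.03 in RWV at 4 h, and at 2.23, 2.12 and 2.06 in TCD and 1.94, 1.52 and 1.77 in RWV at 24 h. The order of the vessels thus turned between the times: neither difference was called (0.63, adjusted p = 0.0825, and -0.40, adjusted p = 0.216), but their interaction was, by both Atf4 probe sets (-1.03 ± 0.270, adjusted p = 0.0300, by the lead), and at 4 h the other probe set was called higher in RWV. At 4 h 5 of the 23 were higher in RWV and 0 lower, with a median of 0.65, where 5.39% of all genes were higher and 0.676% lower. The 5 were Phgdh, Psat1 and Psph, the 3 enzymes of serine synthesis, Atf5, and the amino acid transporter chain Slc3a2, of which Psph and Slc3a2 were named after their values were seen. Phgdh stood at 4.74, 0.72 and 3.94 in TCD and 6.31, 5.46 and 6.66 in RWV (3.01 ± 0.757, adjusted p = 0.0403), the low value being the TCD array that stood apart. The Phgdh call was kept in 10 of 23 other settings, between 1.80 and 3.82 with an adjusted p of up to 0.304. Psat1 was higher by 1.08 ± 0.245 (adjusted p = 0.0261, by 1 of 2 probe sets), a call kept in 19 of 23. Without that array 3 of the 23 were called, and after centring on reference genes 3.

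At 24 h the ATF4 list no longer leaned toward RWV. Of its 23 genes 1 was higher (Atf5) and 2 lower (Nupr1 and Shmt2), with a median of 0.05, where 8.36% of all genes were higher and 6.87% lower. The Nupr1 call was kept in 23 of 23 other settings; Shmt2, which makes glycine from serine in mitochondria, was lower by 1 of 4 probe sets (-0.54, adjusted p = 0.0386), a call kept in 11 of 24. Across the times, in the interaction 4 were lower and 0 higher, with a median of -0.57, where 4.9% of all genes were higher and 7.66% lower. Nupr1, a stress-induced chromatin factor, stood at 9.12, 9.86 and 9.27 in TCD and 6.20, 4.79 and 5.19 in RWV at 24 h, a difference of -4.02 ± 0.390 (adjusted p = 3.93e-05). The 4 genes of the interaction were Nupr1 (-5.14), Psat1 (-1.58), Mthfd2 (-1.41) and Slc3a2 (-0.79), the last 2 named after their values were seen. The lead probe set of Cebpg had the same sign in this test.

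**Figure D5:**
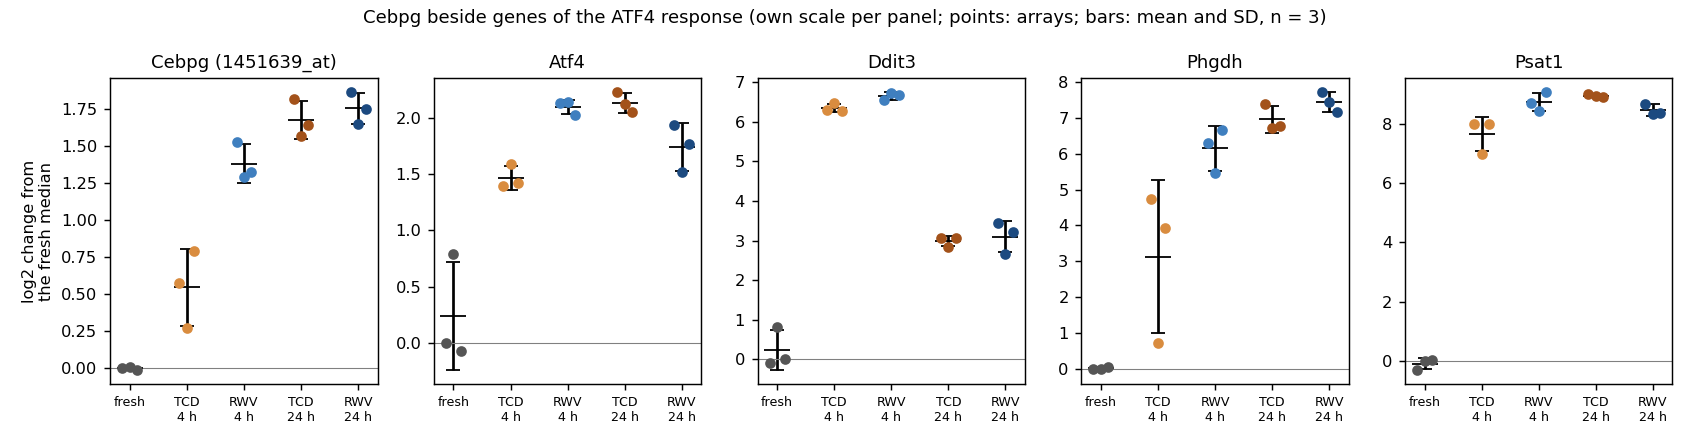
Cebpg beside Atf4, Ddit3, Phgdh and Psat1 on the 15 arrays, as log2 change from the fresh median (y axis, own scale in each panel), by group (x axis); points are arrays and bars the mean and SD of 3. At 4 h the RWV arrays of Cebpg, Atf4, Phgdh and Psat1 lie above the TCD arrays, and 1 TCD array of Phgdh lies at 0.72, while at 24 h the vessels overlap for Cebpg and Phgdh.

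Genes of growth arrest and of entry into G1, a step that C/EBP alpha restrains, were seldom called between the vessels. Of 14 tested, 0 were called by limma at 4 h, where 1 had an unadjusted p under 0.05, and at 24 h the 1 called was Pcna, lower in RWV by -0.67 (adjusted p = 0.0145), which is 7.14% of the list against 6.87% of all genes. Against fresh cells 8 were higher and 1 lower in TCD at 24 h, and 8 and 2 in RWV, where 32.8% and 23.4% of all genes were higher and lower in TCD and 30.6% and 19.1% in RWV. The cell cycle inhibitor Cdkn1a was higher by 8.30 in TCD and 7.24 in RWV, although its fresh arrays spread from -1.01 to 5.33, and Ccnd1 was lower by -4.44 and -4.81.

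Markers of cholangiocytes also moved with the vessel in which Cebpa was lowest. The mean change of the 4 tested of 6 markers was 4.35 to 5.50 on the TCD arrays and 1.56 to 2.50 on the RWV arrays at 24 h, and Krt19, Cldn4 and Epcam were lower in RWV (-4.31, -4.31 and -1.11; adjusted p = 7.23e-05, 0.000196 and 0.00774). The mean change of the 6 tested of 8 hepatocyte markers was -1.09 to -0.99 in TCD and -1.26 to -1.06 in RWV, which overlapped. Of the 4 tested of 7 stellate cell and fibroblast markers 1, Reln, was lower in RWV (-4.95, adjusted p = 1.41e-05). Their median against fresh cells was -0.06 in TCD and -0.01 in RWV, so that their mean, 1.30 to 1.44 on the TCD arrays and -0.05 to 0.48 on the RWV arrays, rests on Reln. Of the 4 tested endothelial markers 1, Stab2, was called lower in RWV, and only 1 neutrophil and 1 lymphocyte marker were off the background. Of all genes 6.87% were lower and 8.36% higher in RWV than in TCD at 24 h. The part of other cell types in the Cebpa result was not tested.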

How the data were processed

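Biotin-labelled total RNA of 15 samples was measured on 15 Affymetrix arrays, 3 per group, with groups assigned from the labels. The deposited values are log2 signals made with GCRMA, per the submitters' processing notes; its version and settings are not given in the sources used here. The fresh median of every probe set was 0, so the values are changes from fresh cells; GCRMA's scale gave the base of the logarithm. There is no read depth, and the number of arrays limits the precision (10 residual degrees of freedom).

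Symbols came from the platform annotation, updated by gene ID from RefSeq names (34741 probe sets matched). Probe sets with 1 symbol were used (34945), not those with several (932) or none (9160), nor 64 controls. A probe set was background when it followed the median of the 20% least variable probe sets (that share is 0.2, correlation above 0.8) with an SD below 0.5, which removed 12849. The members and lists were chosen with earlier results of these data known.

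The comparisons were fitted with limma 3.58.1 (lmFit, contrasts.fit, eBayes) in R 4.3.3 with the package data.table, version 1.17.8, by probe set, all 15 arrays in 1 fit, adjusted by Benjamini-Hochberg at 0.05. The fit was tested on simulated data. Promoters were searched and plots drawn in Python 3.11.15 with matplotlib 3.10.9. Named genes were the members; Cebpe, Ddit3, Atf4, Trib1, Socs3 and Stat3; from each of 6 lists up to 4 called genes with the largest difference between vessels at 24 h, 2 at 4 h and 2 in each of TCD and RWV at 24 h against fresh cells, or the one with the smallest p; and the 5 genes most correlated with each member. Lists were counted by lead probe sets, with no set test.

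Replicate numbers recur in every group without a stated meaning. Each of the 15 arrays correlated best with its own number, and the same-number correlations of deviations ran from 0.02 to 0.49. In 5 of 10 pairs of groups all 3 exceeded 0.1. The labels name no pairing, so the number was left out of the main fit and used as a block in an alternative. Any pairing that the numbers mark is thus ignored by the main fit, and whether they mark one was not tested. Alternatives were no background filter, 1 probe set or the mean per gene, no probe sets of shared sequence, only the groups compared, the replicate block, array weights, robust eBayes, centring on 8 reference genes, and leaving out each array. For the lists and named genes they were chosen after seeing the data.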

Additional observations from a re-analysis of the deposited data

Results flagged for a closer look

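The difference between vessels in Cebpg was not the same at the 2 times: by its lead probe set, 1451639_at, RWV stood above TCD by 0.84 at 4 h and by 0.08 at 24 h, and the interaction term of the limma fit was -0.756 (adjusted p = 0.0179). In TCD the values rose from 0.27 to 0.79 at 4 h to 1.57 to 1.81 at 24 h, and in RWV from 1.29 to 1.53 at 4 h to 1.65 to 1.86 at 24 h, a step that turned to -0.0829 after centring on reference genes, where the interaction was -0.46 (adjusted p = 0.0824). The other Cebpg probe sets were not called in this test.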

How the results depend on the processing

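Of 1449 values of members recomputed under 24 settings, 1378 kept their direction and their side of the threshold, 31 gained a call, 29 lost one and 11 turned; the cause was not tested. Between the vessels at 4 h, 3 member probe sets (1 gene by its lead) were called in the report; 0 (0 genes) were with only the groups compared, which has fewer degrees of freedom, and 2 genes with no background filter or with array weights, Cebpa being the gene added. Leaving out 1 array gave 2 to 3 probe sets and 1 to 2 genes. At 24 h, 1 was called, against 2 probe sets and 2 genes after centring on reference genes (Cebpb added) and 1 to 2 of each without 1 array. In the interaction, 1 was called, against 3 probe sets and 2 genes with no filter or with array weights, 2 genes with probe sets averaged per gene, 2 probe sets with only the groups compared, and 1 to 2 of each without 1 array. For TCD at 4 h against fresh, 4 probe sets (3 genes) became 1 (1 gene) with only the groups compared, and 3 to 4 (2 to 3) without 1 array. With the replicate number as a block, 3 probe sets (2 genes) were called at 24 h between the vessels and 3 (3 genes) in the interaction: Cebpb (adjusted p = 0.0343 and 0.0327) and, in the interaction, Cebpa and Cebpd (both 0.0463) gained calls, Cebpb 1418901_at gained one for RWV at 4 h against fresh (0.328, adjusted p = 0.0245), and Cebpg 1425261_at lost its call between vessels at 4 h (0.0541); each of the 15 arrays correlated best with its own number, a hint from the data and not the design.

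Values that turned were all of Cebpg or of Ddit3. After centring, Cebpg 1425261_at stood against fresh at -0.0881 (TCD at 4 h), -0.52 (TCD at 24 h, adjusted p = 0.0266) and -0.27 (RWV at 24 h). From 4 h to 24 h in TCD it stood at -0.43, with 1425262_at at -0.20. In RWV from 4 h to 24 h, 1451639_at stood at -0.0829 and 1425262_at at -0.43 (adjusted p = 0.0162). There 1425261_at, negative in both settings, went to -0.83 and gained a call (adjusted p = 0.00344). Without 1 array, 1425261_at ran from -0.0362 (without TCD 24 h replicate 1) to 0.25 between vessels at 24 h and from -0.0506 (without TCD replicate 1) to 0.1958 for TCD at 4 h against fresh, 1425262_at from -0.0272 (without RWV 4 h replicate 3; -0.0060 without RWV 24 h replicate 1) to 0.0785 for 4 h to 24 h in RWV, and Ddit3 from -0.0578 (without RWV replicate 1) to 0.3298 between vessels at 24 h. Centring also moved the mean change of Cebpa to -1.10 (RWV at 4 h), -4.27 (TCD at 24 h) and -2.75 (RWV at 24 h), of Cebpb to 0.19, -2.15 and -1.51, of Cebpg to 1.09, 0.78 and 1.01 in the same groups, and of Cebpd to -3.22 and -3.40 at 24 h. With probe sets averaged per gene, Cebpg minus Cebpa at 24 h was 4.53 in TCD and 3.29 in RWV.

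The count of all probe sets called moved by over 1.5 times as follows. At 4 h between vessels 1191 became 15038 with no filter, 27 with only the groups compared, 1832 with array weights, and 571 to 1457 without 1 array; at 24 h 3173 became 5000 with weights and 2029 to 3757 without 1 array. In the interaction 2536 became 7000 with no filter, 4206 with weights and 4258 centred. Against fresh, 5064 became 2275 (TCD at 4 h, only the groups compared), and centring gave 12783 of 6092 (RWV at 4 h), 17430 of 11604 (TCD at 24 h) and 16180 of 10150 (RWV at 24 h). From 4 h to 24 h, 11219 became 24695 with no filter in TCD, and 8478 became 5594 without shared sequence and 13071 centred in RWV. The 5 ATF4 response genes higher in RWV at 4 h became 0 with only the groups compared, 2 without probe sets of shared sequence, 3 centred, 3 without TCD 4 h replicate 2, 9 with no filter, 8 with the block, and 1 to 5 without 1 array. With 3 arrays per group and values that are changes only, small differences and large changes from weak fresh signals are imprecise.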
